A study of Rattus norvegicus with 8 samples.

Results

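The interleukin 6 receptor and the NF-kappa-B regulators comprise 10 genes here, which are the receptor genes Il6r, Il6st and Osmr, the transcription factor Stat3 and its brake Socs3, the I-kappa-B family genes Bcl3 and Nfkbia, and the NF-kappa-B subunit genes Nfkb1, Nfkb2 and Rela. The genes were chosen by name with earlier results of this comparison known, in which Il6r and Bcl3 had passed the threshold, so every difference given for the 10 genes is a description and not a test. They have 16 of the 41012 probes of the array, and 9 of the 10 genes were among the 20935 features tested. The kidneys came from female F344/NSlc rats aged 10 weeks, and the right kidney was profiled in both groups. In 4 rats the other kidney had been removed (unilateral nephrectomy), and 4 rats had a sham operation. The source names place the nephrectomized kidneys at 2 days and the sham kidneys at 1 day, whereas the series' design text gives 2 days for the study, so day and operation cannot be told apart if the source names are right.

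Interleukin 6 binds its receptor Il6r, and the pair then engages Il6st (gp130), the signalling chain shared by the whole cytokine family. Osmr joins the same chain to form the oncostatin M receptor. JAK kinases bound to the receptors phosphorylate STAT3, which enters the nucleus and induces acute phase genes and its own inhibitor Socs3. NF-kappa-B dimers of Rela, Nfkb1 and Nfkb2 products are held in the cytoplasm by I-kappa-B proteins such as Nfkbia, whose degradation releases them. Bcl3 is an atypical I-kappa-B protein that works in the nucleus with homodimers of the Nfkb1 and Nfkb2 products. In the kidney both pathways are best known from the response of tubules, endothelium and leukocytes to inflammation and injury.

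RNA of each kidney was read on its own 1-colour array, on which 59.5% to 66.1% of probes were well above background and none was saturated. Levels below are log2 processed signals relative to the 75th percentile of the array, and differences are nephrectomized minus sham on that scale. All 8 kidney markers checked, among them Umod, Lrp2, Aqp2 and Nphs1, were well above background on all 8 arrays. These are whole-kidney RNAs, in which fewer cells of a type and less RNA per cell cannot be told apart. Each of 2 slides held 2 arrays of either group, and the groups took different positions on it, which cannot be told apart from the operation. In the limma fit across all features, 1.04% passed a Benjamini-Hochberg adjusted p of 0.05 in either direction and 0.287% did so with lower values in nephrectomized kidneys. The groups did not overlap for 11.1% of features, and for 4.07% with lower values in nephrectomized kidneys. Of the 9 tested genes 2, Il6r and Bcl3, passed and did not overlap, both lower, and since this contrast entered their choice nothing is read from those counts. The 9 genes had a median difference of -0.12 and 8 negative values, beside a median of 0.01 and 47.5% negative values for all features. For the same reason nothing is read from these values.

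Among the receptors, Il6r, the ligand-binding chain for interleukin 6, was at -2.49, -2.33, -2.30 and -2.42 in nephrectomized replicates 1 to 4, against -1.86, -2.02, -1.91 and -2.02 in sham replicates 1 to 4. Every nephrectomized kidney lay below every sham kidney, and replicates within a group stayed close together. The means were -2.39 ± 0.09 in nephrectomized and -1.96 ± 0.08 in sham kidneys (SD, n = 4 each), a difference of -0.43 ± 0.07 (SE), which is a level 0.742 times that of sham kidneys (limma 95% interval 0.667 to 0.827). The difference was -0.47 on slide 1 and -0.39 on slide 2. Il6r is a dim probe, with processed signals of 72.4 to 98.7 in nephrectomized and 122 to 177 in sham kidneys, though well above background on all 8 arrays. With normexp background correction and its offset of 50 the difference was -0.17, and it was no longer past the threshold. It was also not past the threshold without a filter on dim probes, with slide as a block, on either slide alone, or when any 1 of the 8 arrays was left out.

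Il6st, the shared signalling chain, was represented by 3 probes. The brightest was at 3.18, 3.31, 3.42 and 3.44 in nephrectomized and at 3.47, 3.51, 3.43 and 3.49 in sham kidneys. The sham kidneys were nearly uniform, while nephrectomized replicate 1 was lowest and replicate 4 reached into the sham range, so the groups overlapped. The difference was -0.14 ± 0.07 (SE; 95% interval -0.30 to 0.02), and it was -0.25 on slide 1, -0.03 on slide 2 and -0.09 without nephrectomized replicate 1. The other probes of Il6st gave -0.11 each, so all 3 had the same sign. Osmr, the oncostatin M receptor chain, was near the detection limit, well above background on 3 of 4 nephrectomized and 4 of 4 sham arrays. Its levels were -4.21, -3.51, -3.40 and -3.60 in nephrectomized and -3.54, -3.70, -3.82 and -3.29 in sham kidneys. These ranges overlapped widely, and the difference of -0.09 ± 0.19 (SE) became 0.09 without nephrectomized replicate 1.

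Stat3, which carries the receptor signal to the nucleus, was at 2.29, 2.24, 2.19 and 2.20 in nephrectomized and at 2.46, 2.35, 2.30 and 2.29 in sham kidneys. The groups met at their edges, with nephrectomized replicate 1 just above the lowest sham kidney. The difference was -0.12 ± 0.06 (SE), a level 0.921 times that of sham kidneys (95% interval 0.838 to 1.01), with -0.14 on slide 1 and -0.10 on slide 2, and the second probe gave -0.08. Socs3, the feedback inhibitor induced by STAT3, was well above background on 1 of 4 arrays in each group and was therefore not tested. Its measured values were -4.84, -4.11, -4.35 and -4.07 in nephrectomized and -4.15, -3.72, -4.64 and -4.36 in sham kidneys. In the fit without a filter on dim probes its difference was -0.13 ± 0.24 (SE). At this brightness the values neither show a difference in Socs3 nor exclude one.

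**Figure D1:**
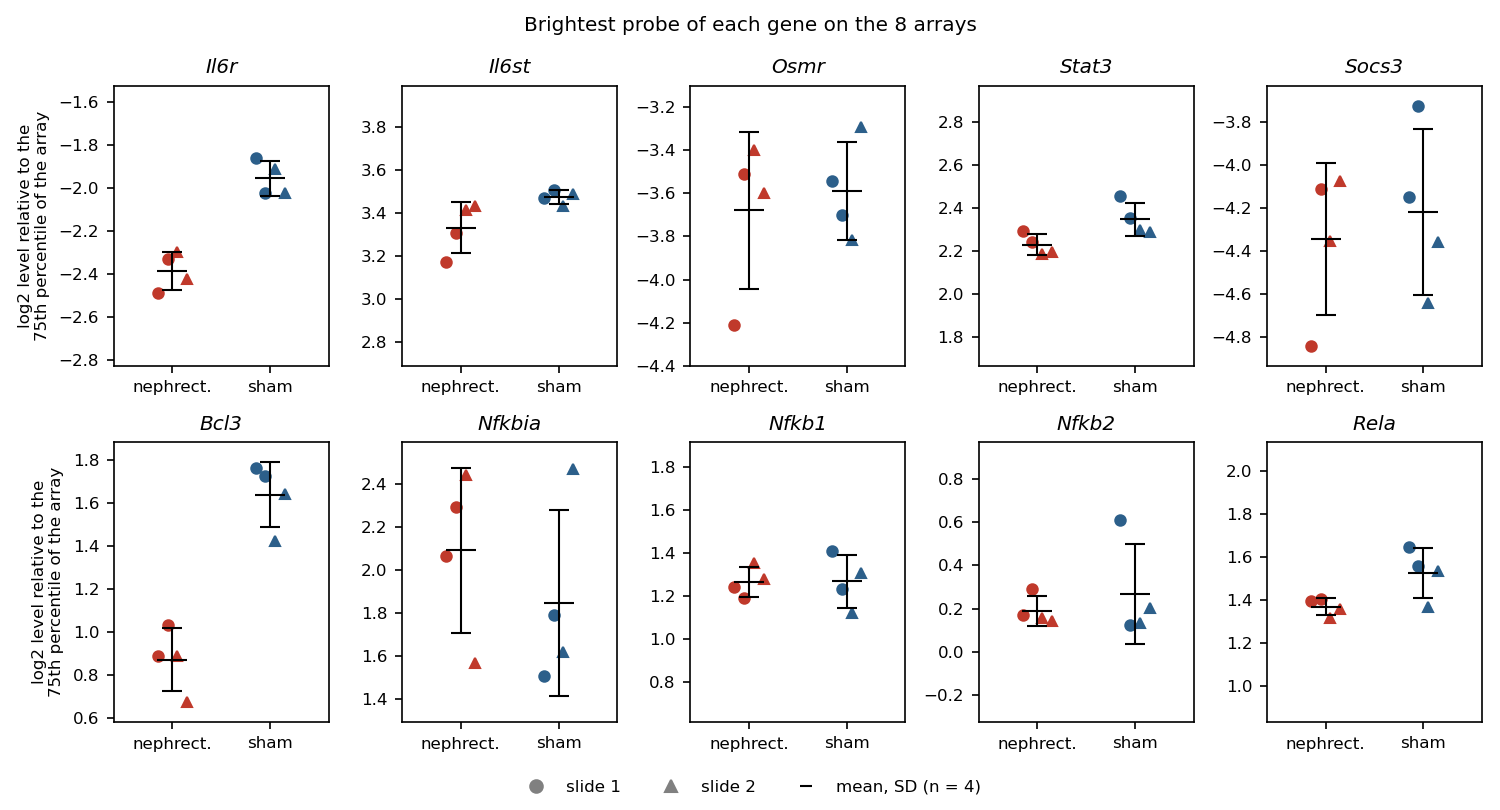
Log2 level relative to the 75th percentile of the array (vertical axis, own range in each panel) for the brightest probe of the 10 genes in 4 nephrectomized (red) and 4 sham (blue) kidneys, with circles for slide 1, triangles for slide 2, and bars for mean and SD. Il6r and Bcl3 are the panels in which both groups are fully apart, while Nfkbia spreads from 1.57 to 2.44 in nephrectomized and from 1.51 to 2.47 in sham kidneys.

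Within the I-kappa-B family, Bcl3 was at 0.89, 1.03, 0.89 and 0.68 in nephrectomized kidneys, against 1.76, 1.72, 1.43 and 1.65 in sham kidneys. The highest nephrectomized kidney lay well below the lowest sham kidney. Means were 0.87 ± 0.15 in nephrectomized and 1.64 ± 0.15 in sham kidneys (SD, n = 4 each), a difference of -0.77 ± 0.10 (SE). This corresponds to 0.587 times the sham level (95% interval 0.502 to 0.688), the lowest ratio among the 9 tested genes. Slide 1 gave -0.78 and slide 2 gave -0.75. The difference passed the threshold with normexp and with slide as a block, but not without a filter on dim probes, on either slide alone, or without nephrectomized replicate 3 or 4 or sham replicate 1, 2 or 4, where leaving out an array gave -0.77 to -0.70.

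Nfkbia, the classical cytoplasmic inhibitor that is itself induced by NF-kappa-B, was the tested member with a positive difference. Its levels were 2.07, 2.29, 2.44 and 1.57 in nephrectomized and 1.51, 1.79, 1.62 and 2.47 in sham kidneys. Nephrectomized replicate 4 and sham replicate 4 stood at the opposite end from the rest of their own groups, and both were on slide 2. The difference was 0.24 ± 0.25 (SE; 95% interval -0.32 to 0.81), with 0.53 on slide 1 and -0.04 on slide 2. It was 0.13 without nephrectomized replicate 3 or without sham replicate 1, 0.42 without nephrectomized replicate 4 and 0.45 without sham replicate 4. Bcl3 and Nfkbia, both I-kappa-B family genes, thus had differences of opposite sign, of which that of Nfkbia was smaller than its spread.

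Of the subunit genes, Nfkb1 and Nfkb2 differed little. Nfkb1, which encodes the p105 precursor of p50, was at 1.24, 1.19, 1.36 and 1.28 in nephrectomized and at 1.41, 1.23, 1.12 and 1.31 in sham kidneys. Nephrectomized values lay inside the sham range, the difference was 0.00 ± 0.07 (SE; 95% interval -0.17 to 0.17), and the second probe gave -0.10. Nfkb2, which encodes the p100 precursor of p52, was at 0.17, 0.29, 0.15 and 0.14 in nephrectomized and at 0.61, 0.12, 0.13 and 0.20 in sham kidneys. Sham replicate 1 stood apart above the other 7 kidneys, and without it the difference of -0.08 ± 0.11 (SE) became 0.04. The second Nfkb2 probe was dim and gave 0.01.

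Rela, which encodes the transactivating p65 subunit, was at 1.40, 1.40, 1.32 and 1.36 in nephrectomized and at 1.65, 1.56, 1.37 and 1.54 in sham kidneys. Sham replicates 1, 2 and 4 lay above all nephrectomized kidneys, and sham replicate 3 lay among them. The difference was -0.16 ± 0.07 (SE), a level 0.896 times that of sham kidneys (95% interval 0.803 to 0.999), and it did not pass the threshold across all features. A second, dim Rela probe gave -0.08.

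**Figure D2:**
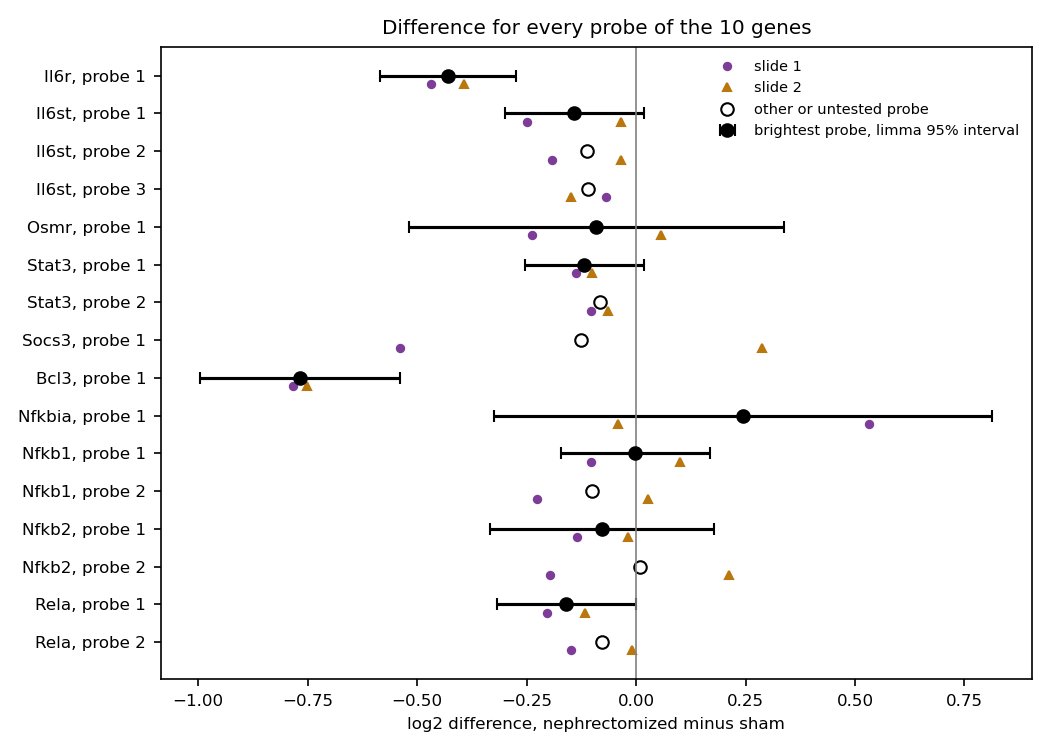
Log2 difference, nephrectomized minus sham (horizontal axis), for all 16 probes of the 10 genes, with filled circles and bars for the brightest tested probe and its limma 95% interval, open circles for the other probes, and small symbols for each slide. Bcl3 at -0.77 and Il6r at -0.43 lie left of all others on both slides for tested probes, and the slides differ in sign for Osmr, Nfkbia and Nfkb1 among the brightest tested probes.

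The promoter windows of all 10 genes, from 250 bases before to 50 bases after the annotated start, were read from RefSeq (assembly GRCr8) to see what sequence the genes share. The kappa-B motif, the general recognition sequence of NF-kappa-B dimers, was found on either strand in the windows of 5 of the 10 genes, namely Socs3, Bcl3, Nfkbia, Nfkb1 and Nfkb2. Among all 33469 RefSeq windows, 4.18% hold it. TTCNNNGAA, the palindrome read by STAT dimers, was in none of the 10 windows and in 8.87% of all windows. The searches of both motifs counted each strand. The windows rest on annotated starts, which were not checked against the starts used in kidney. The Il6st window had 38.3% G and C and 4 CpG dinucleotides, and the next lowest, Nfkbia, had 59.7% and 15. The lack of a match, as for STAT in Socs3 or Il6st, therefore does not show that the promoter in use lacks one. Each kappa-B match outside Socs3 lay close to the annotated start. They are shown in the direction of the gene with flanking bases and the match in capitals, because the genes that carry one had unlike differences:

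Bcl3: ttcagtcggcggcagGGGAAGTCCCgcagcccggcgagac
Nfkbia: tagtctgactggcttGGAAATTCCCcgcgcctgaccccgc
Nfkb1: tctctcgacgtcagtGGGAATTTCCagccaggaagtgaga
Nfkb2: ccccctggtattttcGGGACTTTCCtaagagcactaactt
Socs3: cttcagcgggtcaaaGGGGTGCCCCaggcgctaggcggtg

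The match began at base -38 from the start in Bcl3, -31 in Nfkbia, -20 in Nfkb2 and -161 in Socs3, and at base 4 after it in Nfkb1. Differences of the genes with a match ran from -0.77 in Bcl3 through -0.08 in Nfkb2 and 0.00 in Nfkb1 to 0.24 in Nfkbia, with Socs3 untested. The whole windows of the genes with the lowest ratios to sham follow, Bcl3 with its match in capitals and Il6r with none. They lie at chr1:88613506-88613805, minus strand (Bcl3) and chr2:177645160-177645459, minus strand (Il6r) of GRCr8, and each is written in the direction of its gene:

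Bcl3: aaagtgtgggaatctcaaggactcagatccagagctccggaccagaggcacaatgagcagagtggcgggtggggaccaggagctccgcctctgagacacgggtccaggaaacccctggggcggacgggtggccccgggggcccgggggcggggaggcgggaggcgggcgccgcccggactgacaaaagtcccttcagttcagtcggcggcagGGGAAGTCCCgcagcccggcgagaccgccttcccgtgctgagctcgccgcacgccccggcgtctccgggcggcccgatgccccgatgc
Il6r: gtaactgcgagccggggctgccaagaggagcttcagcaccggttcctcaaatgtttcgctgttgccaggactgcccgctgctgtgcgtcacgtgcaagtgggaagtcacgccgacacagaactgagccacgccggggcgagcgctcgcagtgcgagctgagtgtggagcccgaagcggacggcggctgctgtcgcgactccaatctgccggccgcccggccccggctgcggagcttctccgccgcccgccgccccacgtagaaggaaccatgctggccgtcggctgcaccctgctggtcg

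G and C made up 71.7% of the Bcl3 window and 68.7% of the Il6r window, with 30 and 34 CpG dinucleotides. A match or its lack is a description of letters in this window, which for Socs3 and the other genes need not be the promoter in use. Whether any factor bound there was not measured.

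**Figure D3:**
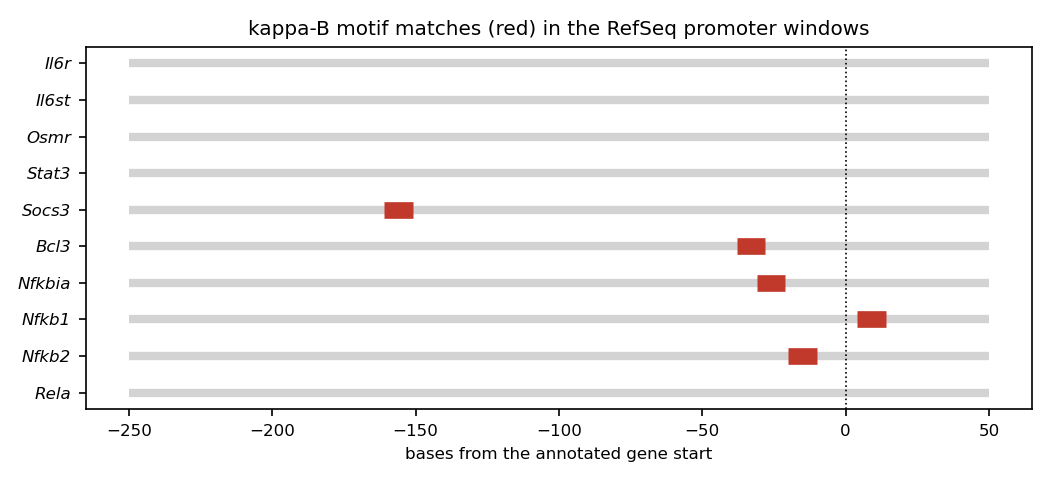
Position of kappa-B motif matches (red) in the RefSeq promoter windows of the 10 genes (grey), in bases from the annotated gene start (dotted line). The matches of Bcl3, Nfkbia, Nfkb1 and Nfkb2 cluster at the start, and that of Socs3 lies at -161.

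The rest of both pathways was described with 9 lists of further genes, of which 91 were on the array under a matched symbol and 77 were tested. Of the 77 only 1, Ccl5, passed the threshold, against 1.04% of all features, so the share called was near that of the array as a whole. The 77 genes had a median difference of -0.06 and 53 negative values (68.8%), beside a median of 0.01 and 47.5% negative values for all features. The lists were chosen with earlier results of these data known, so their counts and medians, here and list by list below, are a description only. The groups did not overlap for 9 of the 77 genes, 7 of them lower in nephrectomized kidneys, against 11.1% and 4.07% of all features.

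Ligands of the interleukin 6 family were mostly undetected. Il6 and Il11 were well above background on 0 of 4 nephrectomized and 1 of 4 sham arrays, and Osm on none of the 8. Of the 2 tested ligands, Ctf1 (cardiotrophin) was at -0.02 ± 0.07 and Cntf (ciliary neurotrophic factor) at 0.16 ± 0.08 (SE), neither past the threshold. Of the other receptors, Il11ra1, the interleukin 11 receptor, differed by -0.20 ± 0.07, with no overlap between groups, and Lifr, the leukemia inhibitory factor receptor, by -0.09 ± 0.12 (SE), and neither passed. The second Lifr probe gave -0.08.

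None of 9 tested JAK kinases, other STATs and SHP2 passed, with a median of -0.02. Ptpn11, the phosphatase SHP2, was at 0.02 ± 0.12, while its other probes gave -0.06 and -0.03. None of 9 other brakes on JAK-STAT signalling passed, the brightest being Ptpn6 at 0.01 ± 0.07 and Pias1 at -0.09 ± 0.06 (SE), and Socs1, a relative of Socs3 named after its values were seen and well above background on 3 of 4 nephrectomized and 1 of 4 sham arrays, was at 0.57 ± 0.34 (SE).

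Of 16 tested genes induced by interleukin 6 or STAT3 in liver or other tissues, none passed, 11 had negative values and the median was -0.06. Among all features 47.5% had negative values. The brightest were Bcl2l1, a survival gene, at -0.06 ± 0.06, and Vegfa at -0.02 ± 0.11 (SE). Other probes gave -0.08 and 0.09 for Bcl2l1, so its sign differed between probes, and -0.10 for Vegfa. Also named, after their values were seen, for their lack of overlap are Mcl1, a survival gene of the same family, at -0.26 ± 0.06 with limma adjusted p = 0.0862, and Hp (haptoglobin) at -0.60 ± 0.16 with adjusted p = 0.125. The second Mcl1 probe gave -0.21. Hp was dim, well above background on 2 of 4 nephrectomized and 4 of 4 sham arrays.

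Upstream of NF-kappa-B no tested gene passed. The other I-kappa-B genes Nfkbib and Nfkbie were at -0.06 ± 0.08 and 0.01 ± 0.07 (SE). In Nfkbie the nephrectomized kidneys ran from -1.01 to -0.95 and lay inside the sham range of -1.09 to -0.82. The 7 tested I-kappa-B kinases and activators had a median of -0.04, with Ikbkb, the catalytic kinase subunit, at -0.04 ± 0.05 and Tab1, a partner of the kinase TAK1, at -0.26 ± 0.21 (SE). The Tab1 value rested on nephrectomized replicate 4, without which, in a fit chosen after seeing the data, it was -0.02 ± 0.06 (SE). The 13 receptors and adapters had a median of -0.07, with Tnfrsf1a, the main TNF receptor, at -0.15 ± 0.08 and the adapter Tradd at 0.13 ± 0.08 (SE). Other Tradd probes gave 0.16 and 0.27.

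Among 17 tested NF-kappa-B responsive genes 1 fell, 12 had negative values and the median was -0.11, whereas 0.287% of all features fell and 47.5% had negative values. Ccl5, a chemokine made by lymphocytes and other cells, was at 0.55, 0.45, 0.63 and 0.66 in nephrectomized kidneys, against 1.14, 0.91, 1.17 and 1.05 in sham kidneys. It fell by 0.49 on the log2 scale (SE 0.08, limma adjusted p = 0.0383), without overlap between groups. It no longer passed when any 1 array was left out, with values from -0.54 to -0.45. Il1b, the inflammatory cytokine interleukin 1 beta, named after its values were seen, was at -2.01, -1.72, -1.95 and -1.68 in nephrectomized and at -1.14, -1.25, -1.24 and -0.49 in sham kidneys. The groups did not overlap, sham replicate 4 was the highest, and the difference of -0.81 ± 0.17 (SE) had a limma adjusted p of 0.0690. Its second probe gave -0.84. Icam1, an adhesion molecule of endothelium that was also named after its values were seen, did not overlap either and was at -0.34 ± 0.10 (SE; adjusted p = 0.154), whereas Sod2, the mitochondrial superoxide dismutase, named in the same way, was above all sham values at 0.15 ± 0.06 (SE; adjusted p = 0.287). Tnf, Nos2, Ptgs2, Sele and Cxcl2 were well above background on none of the 8 arrays.

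**Figure D4:**
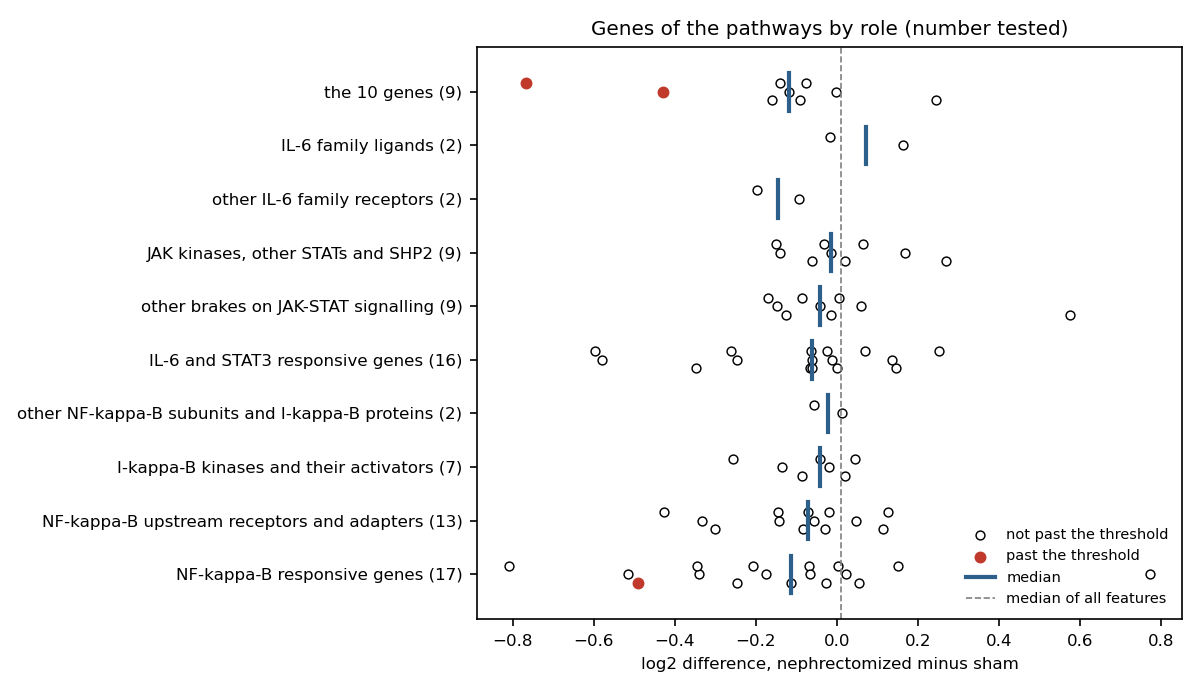
Log2 difference, nephrectomized minus sham (horizontal axis), for the tested members of the 10 genes and of 9 pathway lists, with red for genes past the limma threshold, blue bars for medians and a dashed line for the median of all features at 0.01. Bcl3, Il6r and Ccl5 are the genes past the threshold, and all list medians lie between -0.15 and 0.07.

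Some leukocyte markers were lower in nephrectomized kidneys, as were Il6r, Bcl3 and Ccl5, genes that leukocytes also express. Of 26 such leukocyte markers 23 were on the array and 13 were tested. Of these, 3 fell (S100a8, S100a9 and Adgre1) and 12 had negative values, with a median of -0.21. Among all features 0.287% fell and 47.5% had negative values. The marker lists were chosen with earlier results of these data known, so nothing is read from those counts. No pan-leukocyte or T cell marker passed. Of the pan-leukocyte markers, Ptprc was at -0.33 ± 0.12, Laptm5 at -0.15 ± 0.07, Lcp1 at -0.08 ± 0.10 and Coro1a at 0.01 ± 0.09 (SE). S100a8 and S100a9, abundant in neutrophils, had a summed level of 0.361 to 0.624 in nephrectomized and 1.08 to 1.68 in sham kidneys, in multiples of the 75th percentile. The neutrophil receptors Csf3r and Cxcr2 were well above background on none of the 8 arrays. The 4 tested monocyte and macrophage markers summed to 2.91 to 3.51 in nephrectomized and 3.39 to 3.89 in sham kidneys. Adgre1 among them fell by 0.51, while Csf1r at -0.05 ± 0.10, Cd68 at -0.11 ± 0.08 and Mrc1 at -0.23 ± 0.31 (SE) did not pass. For 4 pan-leukocyte markers the sums were 13.8 to 15.5 in nephrectomized and 14.1 to 16.7 in sham kidneys, and for 3 T cell markers 1.1 to 1.26 in nephrectomized and 1.21 to 1.29 in sham kidneys. Itgam, Ccr2, Cd4, Cd2 and Cd79b were well above background on no array, and no B cell marker was tested. None of 5 endothelial markers passed, with sums of 26.7 to 30.4 in nephrectomized and 24.3 to 29.4 in sham kidneys. None of the 8 kidney markers did, with sums of 655 to 906 in nephrectomized and 759 to 837 in sham kidneys. All these sums add linear levels, so the brightest markers weigh most. On the log2 scale Kdr averaged 4.66 in nephrectomized and 4.53 in sham kidneys, against 1.48 and 1.38 for Emcn, the next endothelial marker. The part of leukocytes in the differences of Il6r, Bcl3 and Ccl5 was not tested.

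The genes most like Il6r and Bcl3 were sought by correlating deviations from the group means over the 8 arrays, which leaves out the difference between groups. Of 10132 named genes compared, Pank3, Fxyd1, Eno2, Crip1 and Sfmbt1 came closest to Il6r, with Pearson correlations of 0.974, 0.957, 0.953, 0.943 and 0.939. Eif1, Tmed1, Rpl32 and Dnajb2 were among the 5 closest to Bcl3, with 0.966, 0.965, 0.962 and 0.962. None of these 9 genes passed the threshold between groups, their differences running from -0.18 for Eno2 to 0.16 for Crip1. With 8 arrays that share scaling and slides, and the best of so many genes taken, the correlations are a description only.

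**Figure D5:**
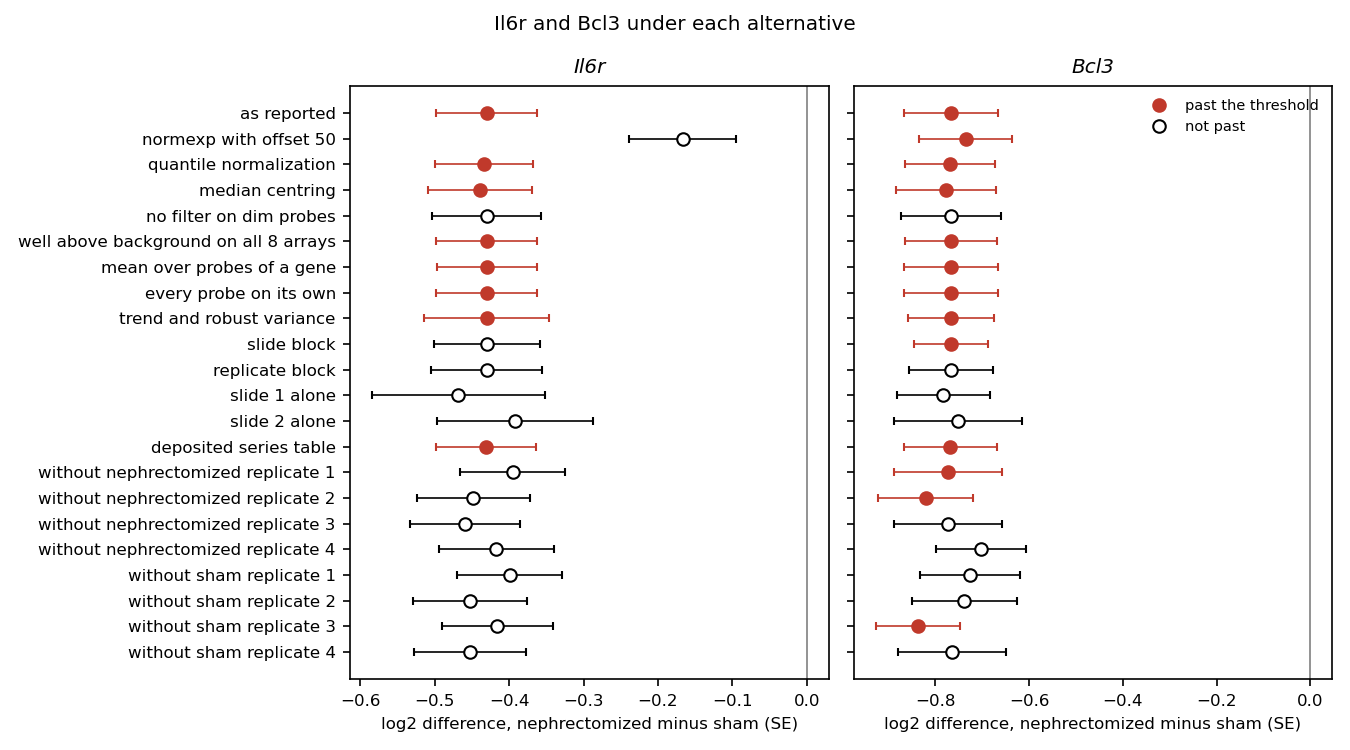
Log2 difference of Il6r and Bcl3, nephrectomized minus sham, with SE (horizontal axis) as reported and under each alternative (rows), in red where past the limma threshold. Il6r stays between -0.47 and -0.17 and Bcl3 between -0.84 and -0.70, and both are red as reported.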

How the data were processed

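Total RNA of 4 nephrectomized and 4 sham kidneys was labelled with Cy3 and hybridised to 1-colour Agilent arrays, per the labels' protocols, and the scans went through version 10.5.1.1 of Agilent's Feature Extraction software, per the file headers. Processed signals deposited by the authors are an intensity on a linear scale that is background-subtracted and detrended within the array, per the file headers. Raw spot and background intensities and flags are deposited beside them. The deposited series table holds log2 values centred per probe, which matched the scanner values at a slope of 1.00, in the same direction, and its column medians were 0.00123, 0.0124, -0.000916 and 0.0153 for nephrectomized and -0.0145, -0.00231, -0.00103 and -0.00968 for sham replicates 1 to 4.

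From the processed signals, log2 values were taken after control spots (1639 of 45018) and outlier spots were left out, spots of a probe were averaged and the 75th percentile of each array (388 to 643 in signal) was subtracted. Probes well above background on at least 4 of 8 arrays were tested. RefSeq accessions without version were matched to GRCr8 genes, naming 18713 probes. The array's headers name another assembly, so probe positions are left out. The brightest probe stood for each gene, leaving 20935 features, 10237 of them with a symbol. Groups were compared by lmFit and eBayes of limma 3.58.1 (R 4.3.3) without covariates, p-values were Benjamini-Hochberg adjusted across every feature, and 0.05 was the threshold. The fit was first tried on simulated data with independent noise and known changes larger than the differences of Il6r and Bcl3. It therefore does not bear on calls of their size.

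The labels list separate samples without naming animals, so the spread measured is that between these samples, and the number of arrays limits the precision. The 10 genes, the pathway lists and the marker lists were chosen with earlier results of these data known. Named are the 10 genes, in each pathway list up to 3 genes past the threshold or else the 2 brightest, and the 5 genes most like Il6r and Bcl3, with exceptions marked and some genes that this rule names not reported here. Alternatives covered background correction, normalization, filters, probe choice, variance model, slide and replicate blocks, each slide alone, the series table and leaving out each array. Normexp used the median spot signal, since the files hold no mean spot signal.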

Additional observations from a re-analysis of the deposited data

Results flagged for a closer look

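Within groups of 4, the ratio of the gap beside the extreme sample to the whole range was above Dixon's 95% critical value in 5 of 66 groups examined, and chance gives about 1 in 20. The middle Il6st probe was at 0.29 in nephrectomized replicate 1, against 0.61 to 0.65 in the other nephrectomized kidneys. Nfkb1 on its second probe was at 1.20 and Nfkb2 on its brightest at 0.61 in sham replicate 1, against 0.91 to 0.95 and 0.12 to 0.20 in the other sham kidneys. Ptpn11 was at 4.17 in nephrectomized replicate 2, against 3.77 to 3.84 in the others of its group. Tab1 was at 2.15 in nephrectomized replicate 4, against 3.04 to 3.14 in the others of its group, and without it the difference of Tab1 was -0.02. The causes were not tested.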

How the results depend on the processing

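The number of features past the threshold, 217 as reported, was 20 with no filter on dim probes, 394 with probes well above background on all 8 arrays, 532 with trend and robust variance, 100 with slide as a block and 0 on either slide alone with limma, where 1885 and 1743 features had an unadjusted p under 0.05. It was 22 to 197 when 1 array was left out, lowest without sham replicate 2 and highest without nephrectomized replicate 1. Of those called, 72.4% were higher as reported, 78.7% with normexp and 67.0% with quantile normalization. Of the 10 genes 2 passed as reported, 1 with normexp or slide as a block, 0 with no filter or on 1 slide alone, and 0 to 1 without 1 array. Pathway genes past the threshold numbered 1 as reported, 0 with no filter, 2 with the filter on all 8 arrays, 3 with trend and robust variance, 0 on 1 slide alone and 0 without 1 array. The median of the pathway genes stayed between -0.07 and -0.03 under the 21 alternatives.

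Il6r was negative under all 21 alternatives and past the threshold in 7. It was not past it at -0.17 with normexp, at -0.43 with no filter or with slide as a block, at -0.47 on slide 1, at -0.39 on slide 2 and at -0.46 to -0.40 without 1 array. Bcl3 was negative under all 21 and past the threshold in 12. Bcl3 was not past it at -0.77 with no filter, at -0.78 on slide 1 and at -0.75 on slide 2. Nor was it at -0.77 to -0.70 without nephrectomized replicate 3 or 4 or sham replicate 1, 2 or 4. Over all runs without 1 array, passing ones included, it lay between -0.84 and -0.70. The sign turned for Osmr with normexp (0.10) and on slide 2 (0.0568), for Nfkbia on slide 2 (-0.0421), and for Nfkb1 with normexp (0.00227) and on slide 2 (0.10). Without 1 array Il6st ran from -0.175 to -0.0887, Nfkbia from 0.129 to 0.453, Osmr from -0.184 to 0.0868, Nfkb1 from -0.05 to 0.0455 and Nfkb2 from -0.125 to 0.0369. The causes of these changes, with fewer arrays and more features tested among the possible ones, were not tested.

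The replicate numbers do not pair the samples by the labels, and deviations of same-numbered arrays correlated at 0.141, 0.0111, -0.0573 and -0.208. With the replicate number as a block 10 features passed, 0 of the 10 genes and 0 pathway genes, with Il6r at -0.43 and Bcl3 at -0.77. Only nephrectomized replicate 1 correlated best with its own number. Low signal over background limits Il6r, Osmr, Socs3 and Hp.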

Other observations

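Deviations from the group means were also compared between the 9 tested genes. Over the 36 pairs the Pearson correlations across 8 arrays ran from -0.477 to 0.762 with a median of 0.269. The highest were Stat3 with Nfkb2 at 0.762, and Il6st with Osmr and Bcl3 with Rela at 0.758 each. Arrays share scaling and slides, so these values are a description only.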
